A study of Mus musculus with 8 samples.

Results

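The genes described here are the Wnt ligands, their Frizzled receptors and the secreted proteins that modulate them in mouse cells on day 8 of reprogramming. They were chosen by a rule on gene symbols, as every gene named Wnt, Fzd, Sfrp, Dkk or Rspo with a number, together with Frzb and Wif1. The rule found 43 of the 26930 genes in the count table, of which 19 were Wnt ligands, 10 Frizzled receptors, 5 secreted Frizzled-related proteins with Frzb, 4 Dickkopf proteins, 4 R-spondins and 1 Wnt inhibitory factor. Gene expression was measured by RNA-seq of RNA depleted of ribosomal RNA, in 8 libraries. All libraries came from mouse embryonic fibroblasts (MEFs) reprogrammed with OKSM, the factors Oct4, Klf4, Sox2 and Myc, in a medium the labels call AGi. The cells were K36M, which carry a histone H3 in which methionine replaces the lysine at the position of that name, or WT, which the labels also describe as H3. They received either TGFb-1 at 2.5 ng/ml, the ligand of the TGF-beta receptor, or Repsox at 250 nM, an inhibitor of the type I TGF-beta receptor. The 4 groups were K36M under TGF-beta, K36M under Repsox, WT under TGF-beta and WT under Repsox, with 2 libraries each. With no untreated group in the labels, the effects of the ligand and of the inhibitor cannot be told apart in any contrast of the media. They do not say which promoter drives the mutant histone, nor that a group's 2 libraries were cultured separately, so every p-value below rests on library spread that may be technical.

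Wnt proteins are lipid-modified secreted ligands that bind Frizzled receptors. In the canonical branch, a Frizzled with the co-receptors Lrp5 or Lrp6 stops a destruction complex from degrading beta-catenin, which then acts with TCF and LEF proteins on target genes such as Axin2. In the non-canonical branches, ligands such as Wnt5a act through Frizzled, Ror2 and planar polarity proteins without beta-catenin. Secreted Frizzled-related proteins, Frzb and Wif1 bind the ligands, Dkk1, Dkk2 and Dkk4 bind the co-receptors, and R-spondins strengthen the signal by sparing Frizzled from degradation. In mouse pluripotent cells canonical signals favour self-renewal, and Wnt3 in the embryo is needed to form the primitive streak. AGi is used in the field as a name for ascorbic acid with a GSK3 inhibitor, which acts on beta-catenin downstream of every protein described here, and all 4 groups shared the medium.

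The libraries held 10928302 to 15594217 counts, of which 6012 to 11155 were from the 43 genes. Levels are CPM, counts scaled to a common library size, with library sizes scaled by the TMM method. Class sums and shares of the 43 genes are per kilobase of annotated exon. Genes of the pathway and marker lists were ranked and summed by CPM, without regard to length. Differences are log2 fold changes with their standard errors, and edgeR adjusted p is the quasi-likelihood test's p after Benjamini-Hochberg adjustment over all 15789 genes tested. A gene is called where it is below 0.05, and rose, fell, higher and lower are used of called genes. A fit without 1 library of a group assumes that the remaining library varies like the other groups. The summed levels of cell type markers differed between the groups. The summed level of 12 epithelial markers ran from 4783 to 4941 CPM in K36M under TGF-beta, from 5805 to 6029 in K36M under Repsox, from 447 to 517 in WT under TGF-beta and from 2448 to 2569 in WT under Repsox. That of 12 fibroblast markers ran from 2916 to 3072, from 1991 to 2022, from 18457 to 20019 and from 5742 to 6372 CPM in the same order of groups, and that of 11 pluripotency markers, found of 12 listed, from 1041 to 1044, from 1738 to 1763, from 44.9 to 57.4 and from 1382 to 1582 CPM. Fn1 led the fibroblast sum, at 1780 CPM in K36M under Repsox and 7950 in WT under TGF-beta. In WT, TGF-beta against Repsox called 6 of the 12 fibroblast markers higher and 6 lower, with a median log2 fold change of 0.05. Of all tested genes it called 29% higher and 33.4% lower. The part of these markers in the results was not tested, and in these bulk samples fewer cells of a type and less RNA per cell cannot be told apart.

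Promoters were to be shown for Wnt3 and Wnt6, and for the 5 genes with the largest changes among those called in all 4 comparisons. These 5 were Wnt6, Wnt10a, Wnt7b, Wnt8a and Wnt9b. No promoter of Wnt10a, Wnt7b or Wnt8a was available, so those of Wnt3, Wnt6 and Wnt9b are shown. Each window runs from 250 bases before to 50 bases after the start of the RefSeq transcript, and capitals mark CG dinucleotides. The sequences are from RefSeq on GRCm38.p6 and each was found once, by exact match, in mm9, at chr11:103635239-103635538 on the plus strand for Wnt3, chr1:74818216-74818515 on the plus strand for Wnt6 and chr11:103611086-103611385 on the minus strand for Wnt9b.
Wnt3: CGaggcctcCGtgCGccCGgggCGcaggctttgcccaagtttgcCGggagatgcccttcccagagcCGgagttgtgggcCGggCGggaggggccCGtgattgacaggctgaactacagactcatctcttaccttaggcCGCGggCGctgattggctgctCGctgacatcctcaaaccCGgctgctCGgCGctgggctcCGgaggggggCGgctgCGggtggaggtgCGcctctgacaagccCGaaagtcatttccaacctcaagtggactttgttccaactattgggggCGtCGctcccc
Wnt6: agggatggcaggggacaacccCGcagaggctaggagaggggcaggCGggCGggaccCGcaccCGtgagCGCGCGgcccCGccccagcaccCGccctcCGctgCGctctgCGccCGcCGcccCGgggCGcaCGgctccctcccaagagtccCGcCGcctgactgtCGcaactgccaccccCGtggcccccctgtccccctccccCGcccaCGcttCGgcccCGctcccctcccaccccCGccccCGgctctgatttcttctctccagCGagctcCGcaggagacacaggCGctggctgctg
Wnt9b: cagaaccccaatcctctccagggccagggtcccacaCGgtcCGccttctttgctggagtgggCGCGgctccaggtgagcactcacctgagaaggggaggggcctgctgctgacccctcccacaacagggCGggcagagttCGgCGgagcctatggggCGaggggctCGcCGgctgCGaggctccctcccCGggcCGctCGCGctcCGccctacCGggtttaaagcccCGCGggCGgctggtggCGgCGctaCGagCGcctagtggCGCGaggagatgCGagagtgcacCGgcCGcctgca
The 3 windows held 24, 31 and 29 CG dinucleotides in this order. The median was 7 over all 32851 promoters of the RefSeq table and 26.5 over the 32 promoters of 29 of the 43 genes that it lists. The TCF and LEF motif was searched as CTTTGAT or CTTTGTT on both strands. CTTTGTT is in the Wnt3 window, with its first base 18 bases after the start base, and neither form is in the Wnt6 or Wnt9b window. Among all promoters 9.33% hold either form, against 5 of the 32 promoters of the genes described here.

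A filter on low counts kept 36 of the 43 genes. A gene read in 1 group only could pass it through that group. Dkk4, Rspo2, Rspo3, Rspo4, Sfrp5, Wnt1 and Wnt8b did not pass. K36M against WT under TGF-beta called 15 of the 36 genes higher and 9 lower, while 36.4% of all tested genes were called higher and 33.9% lower in that comparison, 70.3% in all. Under Repsox the same genotype comparison called 8 higher and 20 lower, where the background was 28.8% higher, 26.9% lower and 55.8% in all. TGF-beta against Repsox in K36M called 18 higher and 3 lower, against backgrounds of 24.7% and 23.6%, 48.3% in all. In WT it called 12 higher and 18 lower, against 29.0% and 33.4%, 62.4% in all. The median log2 fold change of the 36 genes was 0.48 and -0.82 for K36M against WT under TGF-beta and under Repsox, and 0.67 and -1.14 for TGF-beta against Repsox in K36M and in WT. Over all tested genes these medians were 0.05, 0.04, 0.01 and -0.07.

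The groups made different mixtures of ligand transcripts. Summed per kilobase of exon, the 19 ligands stood at 80.1 ± 2.76 CPM per kb in K36M under TGF-beta, 62.6 ± 1.55 in K36M under Repsox, 38.5 ± 1.13 in WT under TGF-beta and 30.4 ± 1.45 in WT under Repsox (SD, n = 2 each). No library of K36M overlapped a library of WT in this sum. K36M against WT called 9 of the 17 tested ligands higher and 3 lower under TGF-beta, and 5 higher and 6 lower under Repsox. Over all tested genes the shares were 36.4% and 33.9% under TGF-beta. They were 28.8% and 26.9% under Repsox, which 5 higher of 17 is near. Wnt8a held the largest share of that sum in K36M under TGF-beta, at 33.7%, with Wnt9a at 14.0%, Wnt6 at 13.5% and Wnt7b at 11.1%. Under Repsox, Wnt7b alone made up 64.8% of the sum in K36M, and Wnt6 10.3%. WT under TGF-beta was led by Wnt5a, at 41.7%, and Wnt9a, at 29.2%, and Wnt7b was at 0.365% there. WT under Repsox had no ligand above 22.2%, the share of Wnt8a, followed by Wnt5a at 19.5%, Wnt7b at 16.8% and Wnt4 at 13.9%. Counted on the longest annotated transcript in place of all exons, the share of Wnt7b was 13.6% in K36M under TGF-beta, 69.7% in K36M under Repsox, 0.435% in WT under TGF-beta and 19.6% in WT under Repsox.

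**Figure D1:**
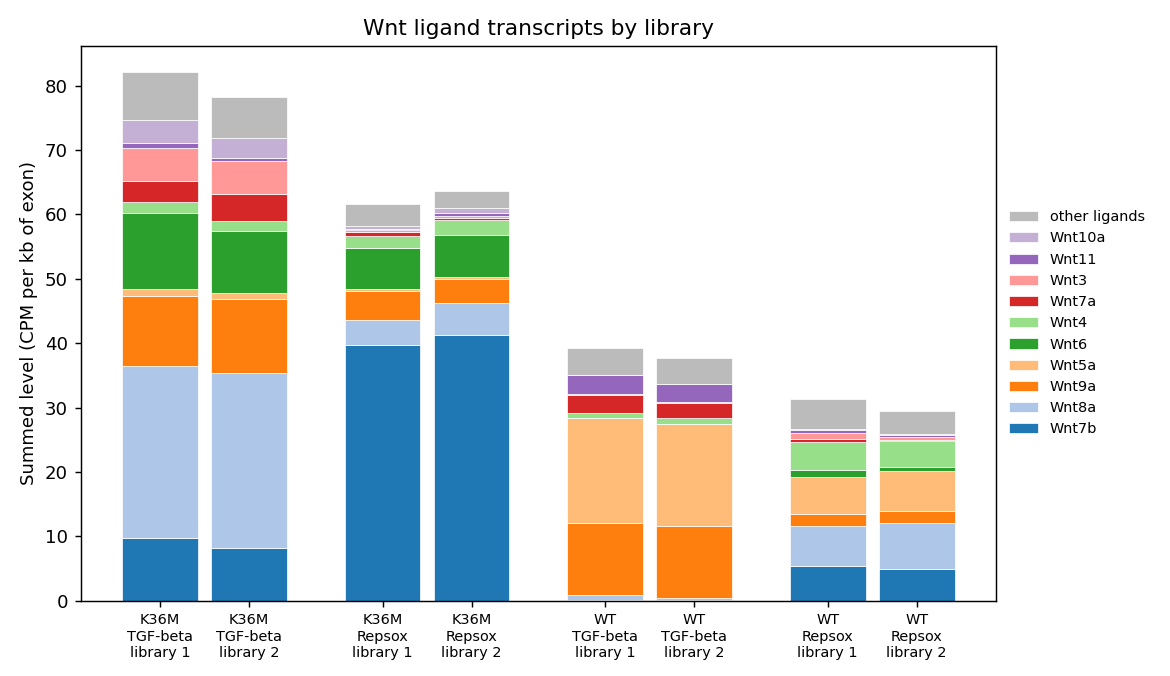
Level of each Wnt ligand per kilobase of exon (CPM per kb), stacked by library, with the 10 ligands that reach the highest levels in colour and the others in grey. The columns reach 82.1 and 78.2 in K36M under TGF-beta, 61.6 and 63.7 in K36M under Repsox, 39.3 and 37.7 in WT under TGF-beta and 31.4 and 29.4 in WT under Repsox. The largest part of the column is Wnt8a in K36M under TGF-beta and in WT under Repsox. It is Wnt7b in K36M under Repsox and Wnt5a in WT under TGF-beta.

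Wnt3, Wnt6, Wnt10a, Wnt8a and Wnt3a were each highest in K36M under TGF-beta. Wnt3, the ligand that starts the primitive streak in the mouse embryo (chromosome 11, 103635464 to 103679271 on mm9), stood at 16.1 and 16 CPM in K36M under TGF-beta, 1.05 and 1.13 in K36M under Repsox, 0.516 and 0.215 in WT under TGF-beta and 3.17 and 1.06 in WT under Repsox. Both K36M TGF-beta libraries were far above the other 6. Under TGF-beta Wnt3 was 44.3-fold higher in K36M than in WT (log2 5.47 ± 0.43, edgeR adjusted p = 1.55e-10). TGF-beta was associated with a 14.6-fold rise over Repsox in K36M (log2 3.87 ± 0.35, edgeR adjusted p = 4.55e-09) and with a fall in WT (log2 -2.58 ± 0.56, edgeR adjusted p = 0.000379). The fall in WT was log2 -1.56 without the first WT Repsox library and -3.26 without the first WT TGF-beta library, and leaving out this WT TGF-beta library put the K36M difference under TGF-beta at log2 6.15. Under Repsox the genotypes overlapped and Wnt3 was not called (log2 -0.98 ± 0.44, edgeR adjusted p = 0.0611). That value was -1.53 (edgeR adjusted p = 0.0016) without the second WT Repsox library and 0.04 (edgeR adjusted p = 0.963) without the first, and Wnt3 was also called with no filter on low counts (log2 -1.03, edgeR adjusted p = 0.0154) and without either WT TGF-beta library (log2 -0.98, edgeR adjusted p = 0.0489 and 0.0485).

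Wnt6, a ligand of surface epithelia and epithelial somites (chromosome 1, 74818466 to 74831893), stood at 24.5 and 20.2 CPM in K36M under TGF-beta and 13.3 and 13.4 in K36M under Repsox. It had 0 counts in both WT TGF-beta libraries and 2.36 and 1.28 CPM in WT under Repsox. No K36M library overlapped a WT library, and under TGF-beta K36M was at least 191-fold above WT. In K36M Wnt6 was 1.68-fold higher under TGF-beta than under Repsox (log2 0.74 ± 0.19, edgeR adjusted p = 0.00247), a call lost without the first K36M TGF-beta library (log2 0.59, edgeR adjusted p = 0.0599). In WT it was at least 15.8-fold lower under TGF-beta than under Repsox, a bound that sets the group with no read at 3 counts over its 2 libraries and covers counting error only. Under Repsox it was 7.21-fold higher in K36M than in WT (log2 2.85 ± 0.25, edgeR adjusted p = 3.84e-09).

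Wnt10a, a ligand of tooth and skin development that lies 6.2 kb downstream of Wnt6 on the same strand, had the same pattern of calls. It stood at 8.83 and 7.78 CPM in K36M under TGF-beta, 1.19 and 1.77 in K36M under Repsox, and 0.472 and 0.529 in WT under Repsox, and had 0 counts in WT under TGF-beta. Under TGF-beta it was at least 71-fold higher in K36M than in WT. In K36M it was 5.67-fold higher under TGF-beta than under Repsox (log2 2.50 ± 0.34, edgeR adjusted p = 2.9e-06), and in WT at least 4.25-fold lower. The call under Repsox, 2.89-fold higher in K36M (log2 1.53 ± 0.49, edgeR adjusted p = 0.0121), was lost without the second K36M Repsox library (log2 1.24, edgeR adjusted p = 0.0994) and without the first WT Repsox library (log2 1.44, edgeR adjusted p = 0.0613).

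Wnt8a, which is read transiently in the mouse primitive streak, had the highest ligand level per length in K36M under TGF-beta, at 27.0 CPM per kb. Its levels were 46.7 and 47.4 CPM in K36M under TGF-beta, 6.58 and 8.45 in K36M under Repsox, 1.46 and 0.359 in WT under TGF-beta and 10.9 and 12.6 in WT under Repsox. The groups did not overlap, and the order of the media was opposite in the genotypes. TGF-beta was 6.3-fold above Repsox in K36M (log2 2.66 ± 0.18, edgeR adjusted p = 5.55e-11) and 13.4-fold below it in WT (log2 -3.74 ± 0.30, edgeR adjusted p = 3.25e-10). K36M was 53.9-fold above WT under TGF-beta (log2 5.75 ± 0.26, edgeR adjusted p = 9.61e-15). Without the first and without the second WT TGF-beta library these last values were log2 6.99 and 5.0 between genotypes, and -4.98 and -3.0 between media in WT. Under Repsox Wnt8a was lower in K36M (log2 -0.65 ± 0.20, edgeR adjusted p = 0.00913), a call lost without the first K36M Repsox library (log2 -0.47, edgeR adjusted p = 0.121).

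Wnt3a, the close relative of Wnt3 that is used to maintain mouse embryonic stem cells, was read almost only in K36M under TGF-beta. It stood at 4.3 and 5.77 CPM there, at 0.0658 and 0.322 in K36M under Repsox, at 0 counts in both WT TGF-beta libraries and at 0 and 0.0755 in WT under Repsox. Under TGF-beta it was at least 42.5-fold higher in K36M than in WT. In K36M TGF-beta was 26.2-fold above Repsox (log2 4.71 ± 0.63, edgeR adjusted p = 2.21e-06), and the log2 value was 3.92 and 6.06 without the first and without the second K36M Repsox library. Under Repsox the genotypes overlapped and Wnt3a was not called, with 5 counts in K36M and 1 in WT, a ratio of 5.08 with an exact 95% interval of 0.569 to 240.

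**Figure D2:**
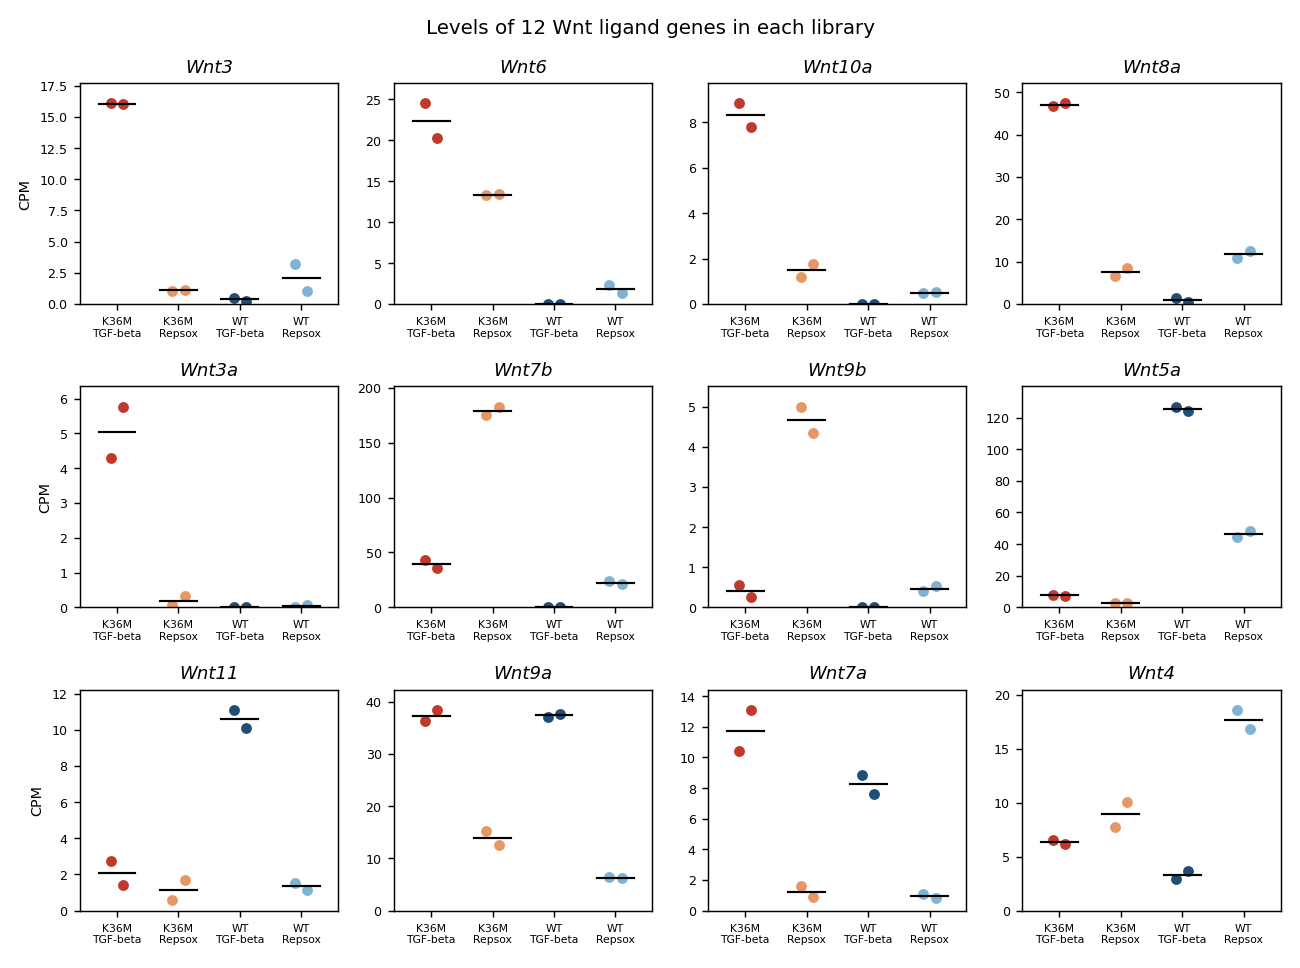
Levels of 12 Wnt ligands in CPM, 1 panel a gene, with a point for each library and a bar at the mean of the 2 libraries of a group. Wnt3, Wnt6, Wnt10a, Wnt8a and Wnt3a are highest in K36M under TGF-beta, Wnt7b and Wnt9b in K36M under Repsox, Wnt5a and Wnt11 in WT under TGF-beta, and Wnt4 in WT under Repsox.

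A pair of ligands was highest in K36M under Repsox. Wnt7b, a canonical ligand of lung, kidney and placental epithelium (chromosome 15, 85365869 to 85412251), stood at 43.1 and 35.8 CPM in K36M under TGF-beta, 175 and 183 in K36M under Repsox, 0.516 and 0.718 in WT under TGF-beta and 23.6 and 21.6 in WT under Repsox. The 4 groups were all apart. K36M was 62.2-fold above WT under TGF-beta (log2 5.96 ± 0.20, edgeR adjusted p = 5.12e-17) and 7.91-fold above it under Repsox (log2 2.98 ± 0.10, edgeR adjusted p = 2.06e-16). TGF-beta was 4.53-fold below Repsox in K36M (log2 -2.18 ± 0.10, edgeR adjusted p = 3.03e-14) and 35.6-fold below it in WT (log2 -5.15 ± 0.22, edgeR adjusted p = 3.33e-15). The noncoding gene AU022754 runs on the other strand and shares 38 of the 4413 exon bases of Wnt7b. Without the strand setting, reads within those 38 bases cannot be told apart.

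Wnt9b, which induces kidney tubules in the mouse embryo (chromosome 11, 103588678 to 103611135), stood at 0.547 and 0.262 CPM in K36M under TGF-beta, 5 and 4.34 in K36M under Repsox, and 0.404 and 0.529 in WT under Repsox, with 0 counts in WT under TGF-beta. Only K36M under Repsox was above 1 CPM. Under Repsox Wnt9b was 9.91-fold higher in K36M than in WT (log2 3.31 ± 0.49, edgeR adjusted p = 7.33e-06), and under TGF-beta at least 3.51-fold. TGF-beta was 11.2-fold below Repsox in K36M (log2 -3.48 ± 0.52, edgeR adjusted p = 8.95e-06), with a log2 value of -4.11 without the first K36M TGF-beta library, and at least 3.94-fold below it in WT. Wnt9b and Wnt3 lie 24.3 kb apart and are transcribed away from each other, and in K36M TGF-beta was above Repsox for Wnt3 and below it for Wnt9b.

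The non-canonical ligands Wnt5a and Wnt11 were highest in WT under TGF-beta. Wnt5a, the main non-canonical ligand of mesenchyme (chromosome 14, 29317936 to 29340633), stood at 8.05 and 6.9 CPM in K36M under TGF-beta, 2.5 and 2.98 in K36M under Repsox, 127 and 124 in WT under TGF-beta and 44.3 and 48 in WT under Repsox. Every WT library was above every K36M library, and TGF-beta was above Repsox in each genotype. K36M was 16.7-fold below WT under TGF-beta (log2 -4.06 ± 0.12, edgeR adjusted p = 5.04e-18) and 16.9-fold below it under Repsox (log2 -4.08 ± 0.15, edgeR adjusted p = 4.23e-16). TGF-beta was 2.75-fold above Repsox in K36M (log2 1.46 ± 0.19, edgeR adjusted p = 9.99e-07) and 2.72-fold above it in WT (log2 1.44 ± 0.09, edgeR adjusted p = 7.74e-12). The difference between these medium effects was log2 0.02 ± 0.18 (edgeR adjusted p = 0.955). The noncoding gene Gm2670 on the other strand shares 358 exon bases with Wnt5a.

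Wnt11, a non-canonical ligand of the developing heart and kidney, stood at 2.74 and 1.4 CPM in K36M under TGF-beta, 0.593 and 1.69 in K36M under Repsox, 11.1 and 10.1 in WT under TGF-beta and 1.55 and 1.13 in WT under Repsox. WT under TGF-beta was above the other 6 libraries, which overlapped. K36M was 5.05-fold below WT under TGF-beta (log2 -2.34 ± 0.34, edgeR adjusted p = 2.39e-06), and TGF-beta was 7.8-fold above Repsox in WT (log2 2.96 ± 0.36, edgeR adjusted p = 1.75e-07). In K36M the medium difference was not called (log2 0.92 ± 0.45, edgeR adjusted p = 0.097). It was called without the second K36M Repsox library (log2 1.80, edgeR adjusted p = 0.0119) and without the second K36M TGF-beta library (log2 1.31, edgeR adjusted p = 0.0364). The pseudogene Gm8398 on the other strand shares 364 exon bases with Wnt11.

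Wnt5b, a relative of Wnt5a known from cartilage, did not follow it. It stood at 3.99 and 2.53 CPM in K36M under TGF-beta, 1.12 and 0.241 in K36M under Repsox, 2.58 and 2.23 in WT under TGF-beta and 6.27 and 4 in WT under Repsox. K36M was 7.13-fold below WT under Repsox (log2 -2.83 ± 0.45, edgeR adjusted p = 1.43e-05), and the genotypes overlapped under TGF-beta. TGF-beta was above Repsox in K36M (log2 2.18 ± 0.48, edgeR adjusted p = 0.000678). Without the first and without the second K36M Repsox library these log2 values were -4.36 and -2.19 between genotypes, and 3.71 and 1.54 between media. TGF-beta was below Repsox in WT (log2 -1.10 ± 0.38, edgeR adjusted p = 0.0146), a call lost in DESeq2 (log2 -1.06, adjusted p = 0.0913), without the first WT Repsox library (log2 -0.74, edgeR adjusted p = 0.176) and without the second WT TGF-beta library (log2 -1.0, edgeR adjusted p = 0.0769).

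Wnt9a, Wnt7a and Wnt10b were higher under TGF-beta than under Repsox in each genotype. Wnt9a, a ligand of joint formation that lies 16.2 kb from Wnt3a, stood at 36.2 and 38.4 CPM in K36M under TGF-beta, 15.2 and 12.5 in K36M under Repsox, 37 and 37.7 in WT under TGF-beta and 6.47 and 6.19 in WT under Repsox. The genotypes overlapped under TGF-beta (log2 -0.00 ± 0.12, edgeR adjusted p = 0.977), and under Repsox K36M was 2.19-fold above WT (log2 1.13 ± 0.16, edgeR adjusted p = 2.03e-06). TGF-beta was 2.68-fold above Repsox in K36M (log2 1.42 ± 0.13, edgeR adjusted p = 5.2e-09) and 5.89-fold above it in WT (log2 2.56 ± 0.14, edgeR adjusted p = 5.06e-13).

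Wnt7a, a ligand of the dorsal limb and the female reproductive tract, stood at 10.4 and 13.1 CPM in K36M under TGF-beta, 1.58 and 0.885 in K36M under Repsox, 8.87 and 7.61 in WT under TGF-beta and 1.08 and 0.831 in WT under Repsox. TGF-beta was 9.25-fold above Repsox in K36M (log2 3.21 ± 0.29, edgeR adjusted p = 5.66e-09) and 8.48-fold above it in WT (log2 3.08 ± 0.32, edgeR adjusted p = 1.64e-08). The genotypes were not called apart in either medium. Under TGF-beta the K36M difference was close to the threshold (log2 0.51 ± 0.23, edgeR adjusted p = 0.0517) and passed it under 6 of 13 alternatives. Wnt10b, known for bone formation, stood at 5.31 and 3.06 CPM in K36M under TGF-beta, 0.79 and 0.402 in K36M under Repsox, 1.81 and 1.65 in WT under TGF-beta and 0.337 and 0.378 in WT under Repsox. The media were apart in each genotype, at log2 2.77 ± 0.47 in K36M (edgeR adjusted p = 4.15e-05; 3.35 without the first K36M Repsox library) and 2.25 ± 0.57 in WT (edgeR adjusted p = 0.00167). K36M was above WT under TGF-beta (log2 1.28 ± 0.41, edgeR adjusted p = 0.00821), a call lost in DESeq2 (adjusted p = 0.0728), without the first K36M TGF-beta library (log2 0.82, edgeR adjusted p = 0.21) and without the second WT TGF-beta library (edgeR adjusted p = 0.0519).

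Wnt4 and Wnt16 were highest in WT under Repsox. Wnt4, a ligand of kidney and ovary development, stood at 6.56 and 6.2 CPM in K36M under TGF-beta, 7.77 and 10.1 in K36M under Repsox, 2.93 and 3.66 in WT under TGF-beta and 18.6 and 16.8 in WT under Repsox. The genotype difference changed sign with the medium, since K36M was 1.92-fold above WT under TGF-beta (log2 0.94 ± 0.24, edgeR adjusted p = 0.00132) and 2-fold below it under Repsox (log2 -1.0 ± 0.18, edgeR adjusted p = 8.26e-05). TGF-beta was 5.32-fold below Repsox in WT (log2 -2.41 ± 0.21, edgeR adjusted p = 1.27e-09) and not called in K36M (log2 -0.47 ± 0.21, edgeR adjusted p = 0.0648), where it was called without the first K36M Repsox library (log2 -0.66, edgeR adjusted p = 0.0366). Wnt16, known from cortical bone, stood at 0.313 and 0.0874 CPM in K36M under TGF-beta, 0.856 and 0.402 in K36M under Repsox, 0.689 and 0.431 in WT under TGF-beta and 3.71 and 2.04 in WT under Repsox. In WT it was 5.17-fold lower under TGF-beta than under Repsox (log2 -2.37 ± 0.56, edgeR adjusted p = 0.000814). The media were not called apart in K36M (log2 -1.61 ± 0.83, edgeR adjusted p = 0.117). Under Repsox K36M was below WT (log2 -2.15 ± 0.53, edgeR adjusted p = 0.00165), with a log2 value of -2.81 without the first K36M Repsox library and a call lost without the first WT Repsox library (log2 -1.65, edgeR adjusted p = 0.0573).

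Wnt2b, a ligand of lung and eye development, was the described ligand that no comparison called, at 6.1 and 6.29 CPM in K36M under TGF-beta, 4.61 and 4.02 in K36M under Repsox, 6.63 and 6.46 in WT under TGF-beta and 4.99 and 4.46 in WT under Repsox. Its edgeR adjusted p ran from 0.0792 to 0.769 over the 4 comparisons. Wnt2, which acts with Wnt2b in the lung, stood below 2 CPM in every group, with 2 counts in K36M under TGF-beta, 0 in K36M under Repsox, 29 in WT under TGF-beta and 6 in WT under Repsox. Under TGF-beta it was 13.8-fold lower in K36M, with an exact 95% interval of 3.48 to 119. Its call under Repsox was lost without any 1 of the 8 libraries (edgeR adjusted p = 0.0524 to 0.178), and its call as higher under TGF-beta in WT was lost without the first WT Repsox, the second WT Repsox or the second WT TGF-beta library (edgeR adjusted p = 0.0776, 0.0558 and 0.116). Wnt1, a midbrain ligand, and Wnt8b, a forebrain ligand, had at most 1 and 8 counts in a group.

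The Frizzled receptors as a sum were lower in K36M, where the ligands as a sum were higher. Under Repsox the ligand sum in K36M was mostly Wnt7b, at 64.8%, and ligands were called in both directions between the genotypes. Per kilobase of exon, the 10 receptors summed to 51.7 ± 2.64 CPM per kb in K36M under TGF-beta, 38.1 ± 1.22 in K36M under Repsox, 79.3 ± 1.7 in WT under TGF-beta and 81.2 ± 2.45 in WT under Repsox (SD, n = 2 each), and no K36M library overlapped a WT library. K36M against WT called 2 of the 10 higher and 4 lower under TGF-beta, and 2 higher and 7 lower under Repsox. Over all tested genes 36.4% were called higher and 33.9% lower under TGF-beta, which 4 lower of 10 is near, and 28.8% and 26.9% under Repsox. Fzd1, Fzd3, Fzd6 and Fzd8 were lower in K36M in both media. Fzd7 held the largest share of the receptor sum in K36M under TGF-beta, 39.4%, and Fzd5 in K36M under Repsox, 42.8%.

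Fzd1, a receptor that can pass canonical signals (chromosome 5, 4753842 to 4758216), had the largest genotype differences among the receptors. It stood at 3.99 and 4.11 CPM in K36M under TGF-beta, 2.7 and 2.65 in K36M under Repsox, 52 and 56 in WT under TGF-beta and 85.1 and 82.9 in WT under Repsox. Every WT library was above every K36M library. K36M was 13.3-fold below WT under TGF-beta (log2 -3.74 ± 0.14, edgeR adjusted p = 1.98e-16) and 31.3-fold below it under Repsox (log2 -4.97 ± 0.14, edgeR adjusted p = 1e-17). TGF-beta was below Repsox in WT (log2 -0.64 ± 0.10, edgeR adjusted p = 4.97e-06). In K36M it was above Repsox (log2 0.59 ± 0.21, edgeR adjusted p = 0.0235), a call lost without any 1 of the 4 K36M libraries (edgeR adjusted p = 0.0757 to 0.0904) and when only the K36M libraries were fitted (edgeR adjusted p = 0.0997).

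Fzd3 and Fzd6 are the receptors of planar polarity in the mouse inner ear and skin. Fzd6 stood at 18.4 and 17.7 CPM in K36M under TGF-beta, 6.12 and 6.43 in K36M under Repsox, 70.8 and 65.9 in WT under TGF-beta and 16.7 and 20.9 in WT under Repsox. K36M was 3.78-fold below WT under TGF-beta (log2 -1.92 ± 0.12, edgeR adjusted p = 4.42e-12) and 2.99-fold below it under Repsox (log2 -1.58 ± 0.15, edgeR adjusted p = 9.62e-09), and TGF-beta was above Repsox in K36M (log2 1.53 ± 0.16) and in WT (log2 1.87 ± 0.12). Fzd3 stood at 6.88 and 6.9 CPM in K36M under TGF-beta, 4.87 and 5.95 in K36M under Repsox, 28.1 and 29.8 in WT under TGF-beta and 15.7 and 18.9 in WT under Repsox. It was 4.2-fold lower in K36M under TGF-beta (log2 -2.07 ± 0.17, edgeR adjusted p = 1.86e-10) and 3.21-fold lower under Repsox (log2 -1.68 ± 0.17, edgeR adjusted p = 2.78e-08). For Fzd3 TGF-beta was above Repsox in WT (log2 0.75 ± 0.15, edgeR adjusted p = 0.000121), and the media were not called apart in K36M (log2 0.36 ± 0.20, edgeR adjusted p = 0.144). Fzd8, a relative of Fzd5, stood at 6.49 and 4.46 CPM in K36M under TGF-beta, 4.41 and 2.73 in K36M under Repsox, 15.3 and 18.3 in WT under TGF-beta and 13.7 and 13 in WT under Repsox. Its genotype differences were log2 -1.61 ± 0.22 under TGF-beta (edgeR adjusted p = 8.24e-07) and -1.88 ± 0.23 under Repsox (edgeR adjusted p = 3.65e-07), and its medium differences were not called. That in K36M was close to the threshold (log2 0.60 ± 0.26, edgeR adjusted p = 0.0604) and passed it under 5 of 13 alternatives.

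Fzd5, Fzd7 and Fzd2 were the other receptors of high level. Fzd5, needed for the vessels of yolk sac and placenta, stood at 86.6 and 80.4 CPM in K36M under TGF-beta, 118 and 108 in K36M under Repsox, 52.6 and 51.8 in WT under TGF-beta and 177 and 162 in WT under Repsox. The order of the genotypes turned with the medium, since K36M was 1.6-fold above WT under TGF-beta (log2 0.68 ± 0.09, edgeR adjusted p = 6.75e-07) and 1.5-fold below it under Repsox (log2 -0.59 ± 0.08, edgeR adjusted p = 3.32e-06). TGF-beta was below Repsox in K36M (log2 -0.44 ± 0.09, edgeR adjusted p = 0.000232) and further below it in WT (log2 -1.70 ± 0.09, edgeR adjusted p = 1.32e-13). Fzd7, a receptor of pluripotent cells, stood at 98.3 and 97 CPM in K36M under TGF-beta, 66.9 and 68.1 in K36M under Repsox, 95.3 and 105 in WT under TGF-beta and 105 and 94.2 in WT under Repsox. Only K36M under Repsox stood apart. It was 1.48-fold below WT under Repsox (log2 -0.56 ± 0.09, edgeR adjusted p = 9.98e-06), and TGF-beta was 1.45-fold above Repsox in K36M (log2 0.53 ± 0.09, edgeR adjusted p = 2.68e-05).

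Fzd2, which can pass both canonical and non-canonical signals, stood at 29.1 and 26.8 CPM in K36M under TGF-beta, 4.48 and 4.1 in K36M under Repsox, 30 and 29.9 in WT under TGF-beta and 12.5 and 10.3 in WT under Repsox. TGF-beta was 6.5-fold above Repsox in K36M (log2 2.70 ± 0.16, edgeR adjusted p = 6.18e-12) and 2.63-fold above it in WT (log2 1.39 ± 0.14, edgeR adjusted p = 1.25e-08). K36M was 2.65-fold below WT under Repsox (log2 -1.40 ± 0.18, edgeR adjusted p = 5.65e-07), and under TGF-beta the difference was not called (log2 -0.10 ± 0.13, edgeR adjusted p = 0.522).

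Fzd4, Fzd9 and Fzd10 form a subfamily and were read at under 5 CPM in every library. Fzd10 stood at 3.91 and 3.32 CPM in K36M under TGF-beta, 0.922 and 0.241 in K36M under Repsox, 0 and 0.79 in WT under TGF-beta and 0.876 and 1.06 in WT under Repsox. K36M was above WT under TGF-beta (log2 3.07 ± 0.66, edgeR adjusted p = 0.000278; 2.17 without the first WT TGF-beta library), and without the second WT TGF-beta library the WT group held no read. TGF-beta was above Repsox in K36M (log2 2.56 ± 0.61, edgeR adjusted p = 0.00143; 3.85 and 1.96 without the first and without the second K36M Repsox library). A pseudogene annotation of the same name shares 2430 exon bases with Fzd10 on the same strand. That annotation is not among the genes counted, and whether Fzd10 reads were lost to it is not known. Fzd4, the norrin receptor of retinal vessels, stood at 1.88 and 0.874 CPM in K36M under TGF-beta, 1.98 and 2.82 in K36M under Repsox, 2.75 and 1.01 in WT under TGF-beta and 0.404 and 0.453 in WT under Repsox. WT under Repsox was lowest. K36M was above it under Repsox (log2 2.45 ± 0.59, edgeR adjusted p = 0.00133), and TGF-beta was above Repsox in WT (log2 2.08 ± 0.62, edgeR adjusted p = 0.00567), a call lost without the first WT TGF-beta library (log2 1.22, edgeR adjusted p = 0.175).

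Fzd9 stood at 4.14 and 2.45 CPM in K36M under TGF-beta, 3.16 and 2.57 in K36M under Repsox, 2.67 and 2.01 in WT under TGF-beta and 0.539 and 1.51 in WT under Repsox, where it was lowest. Its calls against that group rested on single libraries. K36M was above WT under Repsox (log2 1.51 ± 0.45, edgeR adjusted p = 0.00651), but not without the first K36M Repsox library (log2 1.35, edgeR adjusted p = 0.0523) or the first WT Repsox library (log2 0.92, edgeR adjusted p = 0.114), and the log2 value was 2.40 without the second WT Repsox library. In WT TGF-beta was above Repsox (log2 1.2 ± 0.46, edgeR adjusted p = 0.0289), but not in DESeq2 (adjusted p = 0.0786), without the first WT Repsox library (log2 0.61, edgeR adjusted p = 0.311) or without the first WT TGF-beta library (log2 1.00, edgeR adjusted p = 0.135), and the log2 value was 2.09 without the second WT Repsox library.

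**Figure D3:**
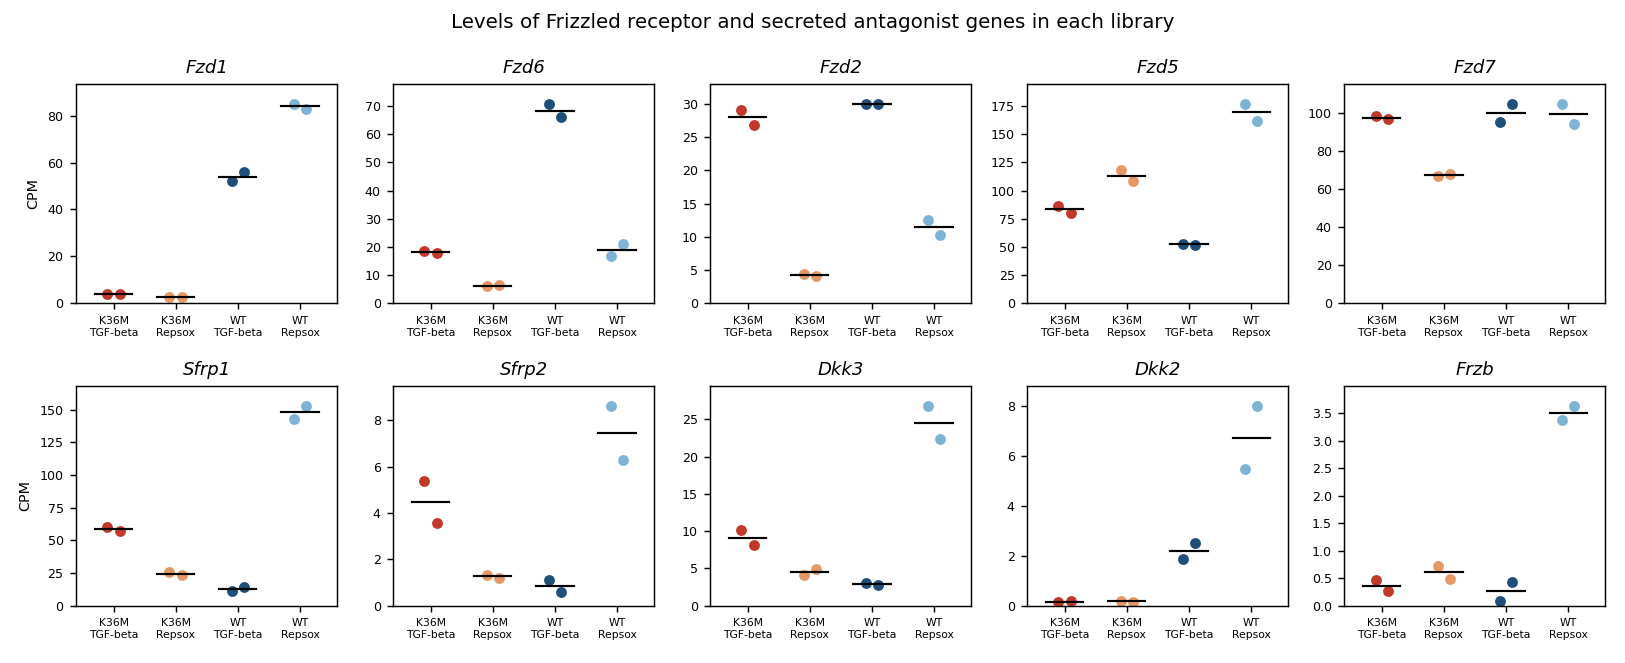
Levels of 5 Frizzled receptors and 5 secreted antagonists in CPM, with a point for each library and a bar at the mean of the 2 libraries of a group. Fzd1 is at 2.65 to 4.11 CPM in the K36M libraries and at 52 to 85.1 CPM in the WT libraries, and Sfrp1, Sfrp2, Dkk3, Dkk2 and Frzb are highest in WT under Repsox.

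As a sum, the 5 genes of the Sfrp family were highest in WT under Repsox. They summed to 15.8 ± 1.09 CPM per kb in K36M under TGF-beta, 6.7 ± 0.26 in K36M under Repsox, 4.34 ± 0.609 in WT under TGF-beta and 39.4 ± 1.19 in WT under Repsox (SD, n = 2 each), and Sfrp1 made up 66.6% to 85.8% of that sum in the 4 groups. Sfrp1 (chromosome 8, 24521974 to 24560104) stood at 60.3 and 57.3 CPM in K36M under TGF-beta, 25.4 and 23.3 in K36M under Repsox, 11.2 and 14.1 in WT under TGF-beta and 143 and 153 in WT under Repsox. The 4 groups were all apart, and the media had opposite orders in the genotypes. TGF-beta was 2.41-fold above Repsox in K36M (log2 1.27 ± 0.10, edgeR adjusted p = 8.97e-10) and 11.6-fold below it in WT (log2 -3.54 ± 0.11, edgeR adjusted p = 1.83e-17). K36M was 4.61-fold above WT under TGF-beta (log2 2.21 ± 0.11, edgeR adjusted p = 9e-14) and 6.06-fold below it under Repsox (log2 -2.60 ± 0.10, edgeR adjusted p = 1.83e-15).

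Sfrp2 stood at 5.39 and 3.58 CPM in K36M under TGF-beta, 1.32 and 1.21 in K36M under Repsox, 1.12 and 0.574 in WT under TGF-beta and 8.63 and 6.27 in WT under Repsox. It had the same 4 calls as Sfrp1, at log2 1.83 ± 0.36 for TGF-beta against Repsox in K36M (edgeR adjusted p = 0.000232) and -3.16 ± 0.37 in WT (edgeR adjusted p = 1.43e-07), and at 2.43 ± 0.40 for K36M against WT under TGF-beta (edgeR adjusted p = 1.16e-05) and -2.55 ± 0.34 under Repsox (edgeR adjusted p = 1.32e-06). The noncoding gene Gm16790 on the other strand shares 347 exon bases with Sfrp2. Sfrp4 was called between the genotypes and not between the media, at 0.156 and 0.699 CPM in K36M under TGF-beta, 0.395 and 0.885 in K36M under Repsox, 3.27 and 4.31 in WT under TGF-beta and 3.71 and 4.38 in WT under Repsox. It was lower in K36M under TGF-beta (log2 -3.17 ± 0.52, edgeR adjusted p = 1.2e-05; -2.43 and -4.52 without the first and without the second K36M TGF-beta library) and under Repsox (log2 -2.68 ± 0.46, edgeR adjusted p = 3.8e-05; -3.32 without the second K36M Repsox library).

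Frzb and Wif1 were read above 1 CPM only in WT under Repsox. Frzb, an antagonist of cartilage, stood at 0.469 and 0.262 CPM in K36M under TGF-beta, 0.724 and 0.483 in K36M under Repsox, 0.0861 and 0.431 in WT under TGF-beta and 3.37 and 3.63 in WT under Repsox. K36M was 5.64-fold below WT under Repsox (log2 -2.50 ± 0.50, edgeR adjusted p = 0.000225), and TGF-beta was 12.5-fold below Repsox in WT (log2 -3.64 ± 0.59, edgeR adjusted p = 1.22e-05; -2.99 and -5.20 without the first and without the second WT TGF-beta library). Wif1, which binds Wnt proteins through its own domain, stood at 0.391 and 0.0874 CPM in K36M under TGF-beta, 0.263 and 0.241 in K36M under Repsox, 0 and 0.215 in WT under TGF-beta and 2.29 and 2.27 in WT under Repsox. Under Repsox K36M was 8.71-fold below WT (log2 -3.12 ± 0.67, edgeR adjusted p = 0.000391). In WT it was 19.4-fold lower under TGF-beta, from 3 counts, with an exact 95% interval of 6.35 to 96.6, and the log2 value of -4.18 was -3.34 without the first WT TGF-beta library.

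Of the Dickkopf genes, which encode antagonists of the co-receptors, Dkk3 is the divergent member. It stood at 10.1 and 8.13 CPM in K36M under TGF-beta, 4.15 and 4.91 in K36M under Repsox, 3.1 and 2.73 in WT under TGF-beta and 26.8 and 22.3 in WT under Repsox. The groups had the same order as for Sfrp1 and did not overlap. TGF-beta was 2.02-fold above Repsox in K36M (log2 1.02 ± 0.21, edgeR adjusted p = 0.000363) and 8.44-fold below it in WT (log2 -3.08 ± 0.21, edgeR adjusted p = 1.4e-11). K36M was above WT under TGF-beta (log2 1.65 ± 0.23, edgeR adjusted p = 1.3e-06) and below it under Repsox (log2 -2.44 ± 0.19, edgeR adjusted p = 3.34e-10).

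Dkk2, which binds Lrp5 and Lrp6, was lower in K36M in both media. It stood at 0.156 and 0.175 CPM in K36M under TGF-beta, 0.198 and 0.161 in K36M under Repsox, 1.89 and 2.51 in WT under TGF-beta and 5.46 and 8.01 in WT under Repsox. K36M was 12.8-fold below WT under TGF-beta (log2 -3.67 ± 0.61, edgeR adjusted p = 1.29e-05) and 35.3-fold below it under Repsox (log2 -5.14 ± 0.49, edgeR adjusted p = 9.06e-09), and TGF-beta was 3.02-fold below Repsox in WT (log2 -1.59 ± 0.33, edgeR adjusted p = 0.00023). Dkk1, a target of canonical signals that inhibits them, held 31 counts in K36M under TGF-beta, 55 in K36M under Repsox, 1 in WT under TGF-beta and 37 in WT under Repsox. From that 1 count, K36M was 32.7-fold above WT under TGF-beta, with an exact 95% interval of 5.44 to 1331, and TGF-beta was 33.7-fold below Repsox in WT, with an interval of 5.68 to 1365. The fitted log2 difference of 4.71 between the genotypes was 3.45 and 5.34 without the first and without the second K36M TGF-beta library, and 3.73 without the second WT TGF-beta library, which also put the medium difference in WT at -3.79 in place of -4.76. Without the first WT TGF-beta library the WT group held no read. Dkk4 had at most 4 counts in a group.

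The R-spondins, which bind Lgr receptors and spare Frizzled proteins from the ligases Znrf3 and Rnf43, were close to the detection limit. Their 4 genes summed to 0.638 ± 0.292 CPM per kb in K36M under TGF-beta, 0.563 ± 0.0453 in K36M under Repsox, 0.965 ± 0.154 in WT under TGF-beta and 0.514 ± 0.123 in WT under Repsox (SD, n = 2 each). Rspo1 had 15 counts in K36M under TGF-beta, 14 in K36M under Repsox, 22 in WT under TGF-beta and 0 in WT under Repsox, which puts K36M at least 4.74-fold above WT under Repsox. It was at least 8.06-fold higher under TGF-beta than under Repsox in WT. The others were not tested. Rspo3 had 3 counts in K36M under TGF-beta, 6 in K36M under Repsox, 30 in WT under TGF-beta and 0 in WT under Repsox, which puts TGF-beta at least 11-fold above Repsox in WT. Rspo4 had 14 and 9 counts in K36M under TGF-beta and under Repsox, and 1 and 21 in WT under TGF-beta and under Repsox. Rspo2 had at most 19 counts in a group and Sfrp5 at most 10.

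The response to the medium differed between the genotypes for 22 of the 36 tested genes. TGF-beta minus Repsox was more positive in K36M than in WT for 18 genes and more negative for 4, where 28.5% of all tested genes were called in the first direction and 22.6% in the second, 51.0% in all. The median of this difference was log2 1.29 over the 36 genes and 0.09 over all tested genes. For 9 genes TGF-beta was above Repsox in K36M and below it in WT, both called, namely Dkk3, Fzd1, Sfrp1, Sfrp2, Wnt10a, Wnt3, Wnt5b, Wnt6 and Wnt8a. No gene was called in the reverse pair of directions. TGF-beta was higher in both genotypes for Fzd2, Fzd6, Wnt10b, Wnt5a, Wnt7a and Wnt9a, and lower in both for Fzd5, Wnt7b and Wnt9b. Without the second WT Repsox library the genes with a more negative response in K36M were 7 in place of 4.

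**Figure D4:**
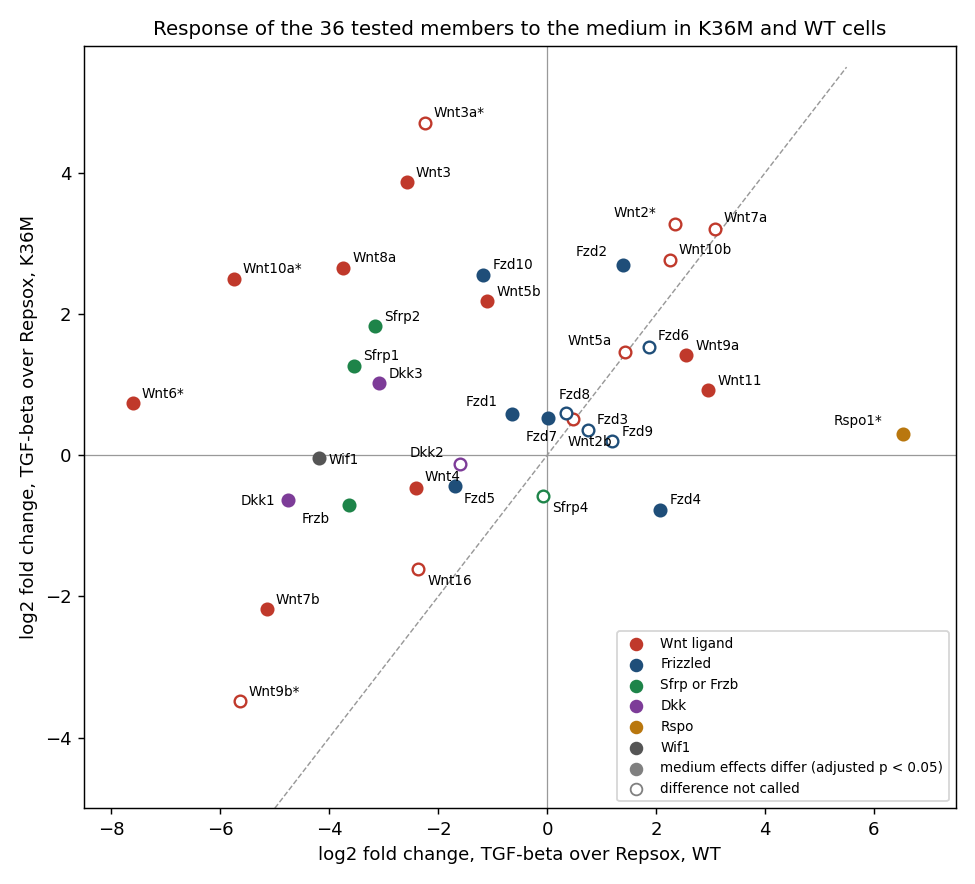
Log2 fold change of TGF-beta over Repsox in K36M (vertical axis) against that in WT (horizontal axis) for the 36 tested genes, coloured by class, with filled points where the fold changes differ at edgeR adjusted p below 0.05 and a dashed line of equal response. The upper left field, positive in K36M and negative in WT, holds Wnt3, Wnt6, Wnt8a, Wnt10a, Wnt5b, Sfrp1, Sfrp2, Dkk3, Fzd1, Wnt3a and Fzd10. Of these, Wnt3a and Fzd10 were not called in WT. Stars mark genes with 0 counts in a group, whose fitted values depend on the prior count and are no bound.

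Target genes of canonical signals and other genes of the pathway were taken from lists of known members. Their counts are to be read against all tested genes, of which K36M against WT called 36.4% higher and 33.9% lower under TGF-beta (70.3% in all), and 28.8% higher and 26.9% lower under Repsox (55.8% in all). Of 18 feedback and target genes, the genotype comparison called 10 higher and 5 lower under TGF-beta, and 2 higher and 11 lower under Repsox. TGF-beta against Repsox called 8 higher and 4 lower in K36M, where the shares over all genes were 24.7% and 23.6%, and 3 higher and 13 lower in WT, where they were 29.0% and 33.4%. Axin2, the standard target and an inhibitor of the pathway, stood at 31.8 and 33.9 CPM in K36M under TGF-beta, 28.9 and 30.7 in K36M under Repsox, 5.51 and 8.26 in WT under TGF-beta and 34.2 and 24.7 in WT under Repsox. Only WT under TGF-beta was apart. K36M was above it under TGF-beta (log2 2.24 ± 0.18, edgeR adjusted p = 1.75e-10), and TGF-beta was below Repsox in WT (log2 -2.08 ± 0.18, edgeR adjusted p = 7.24e-10), while under Repsox the genotypes overlapped (log2 0.01 ± 0.15, edgeR adjusted p = 0.958).

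Sp5, a transcription factor that answers Wnt3a, stood at 6.72 and 6.47 CPM in K36M under TGF-beta, 0.395 and 0.724 in K36M under Repsox, 0.258 and 0.0718 in WT under TGF-beta and 1.75 and 1.44 in WT under Repsox. It was higher under TGF-beta in K36M (log2 3.57 ± 0.42, edgeR adjusted p = 2.98e-07) and lower in WT (log2 -3.27 ± 0.64, edgeR adjusted p = 0.00013). T, the streak factor Brachyury and a target of Wnt3a, stood at 5.86 and 4.81 CPM in K36M under TGF-beta, 0.0658 and 0.0804 in K36M under Repsox, 0.172 and 0.215 in WT under TGF-beta and 1.62 and 0.907 in WT under Repsox. Both genes, like Wnt3, were highest in K36M under TGF-beta, and T was named for its level in the list of mesendoderm markers given below. Nkd1, an inhibitor induced by the pathway, was at 2.92 ± 0.295, 2.55 ± 1.33, 0.588 ± 0.0199 and 4.99 ± 0.956 CPM in K36M under TGF-beta, K36M under Repsox, WT under TGF-beta and WT under Repsox (SD, n = 2 each). The targets of highest level were Cd44, Ccnd1, Myc and Wisp1, all lower in K36M in both media, and Wisp1 stood at 12.8 ± 2.23 CPM in K36M under TGF-beta against 397 ± 13.1 in WT under TGF-beta. Unlike Sp5 and T, Cd44, Myc and Wisp1 were highest in WT under TGF-beta, and Ccnd1 and Nkd1 in WT under Repsox. Myc reads can come from the reprogramming transgene.

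Tcf7 and Lef1, nuclear partners of beta-catenin, were called in opposite directions between the genotypes under TGF-beta. Tcf7 stood at 49.4 and 55.3 CPM in K36M under TGF-beta, 43.3 and 33.6 in K36M under Repsox, 5.42 and 4.6 in WT under TGF-beta and 22.2 and 20.2 in WT under Repsox. Lef1 stood at 2.81 and 2.36, 3.42 and 2.82, 42.6 and 38.8, and 4.65 and 6.65 CPM in the same order of groups. Under TGF-beta K36M was above WT for Tcf7 (log2 3.39 ± 0.16, edgeR adjusted p = 1.71e-14) and below it for Lef1 (log2 -3.96 ± 0.21, edgeR adjusted p = 8.77e-14). Ctnnb1, which encodes beta-catenin, was higher in K36M by log2 0.18 ± 0.06 under TGF-beta and 0.23 ± 0.06 under Repsox, at 985 ± 14.5 and 1003 ± 13.8 CPM in K36M under TGF-beta and under Repsox and 869 ± 24 and 858 ± 4.57 in WT under TGF-beta and under Repsox. Among 27 genes of the destruction complex and its transducers, K36M against WT called 9 higher and 11 lower under TGF-beta, and 9 higher and 9 lower under Repsox, close to the shares over all tested genes of 36.4% and 33.9%, and 28.8% and 26.9%.

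For 8 genes of Wnt secretion and of the cell surface, found of 10 listed, the genotype comparison called 3 higher and 5 lower under TGF-beta, where the shares over all genes were 36.4% and 33.9%, and 1 higher and 6 lower under Repsox, where they were 28.8% and 26.9%. Wls, the carrier that every Wnt protein needs to leave the cell, stood at 67.5 and 75.8 CPM in K36M under TGF-beta, 28.2 and 31.4 in K36M under Repsox, 332 and 342 in WT under TGF-beta and 70.3 and 77.7 in WT under Repsox. It was lower in K36M under TGF-beta (log2 -2.24 ± 0.09, edgeR adjusted p = 7.25e-16) and under Repsox (log2 -1.31 ± 0.10, edgeR adjusted p = 8.36e-11). Gpc4, a glypican that holds Wnt proteins at the surface, was lower in K36M by similar amounts in both media (log2 -1.83 ± 0.08 under TGF-beta and -1.80 ± 0.09 under Repsox). Co-receptors and receptor partners, 14 genes, gave 8 calls higher and 6 lower between the genotypes under TGF-beta, and 2 higher and 7 lower under Repsox, against the same shares. The canonical co-receptors split, with Lrp5 higher in K36M (log2 0.93 ± 0.08 under TGF-beta and 0.95 ± 0.08 under Repsox) and Lrp6 lower (log2 -0.43 ± 0.07 and -0.50 ± 0.07). Planar polarity genes, 12 in the list, gave 5 calls higher and 4 lower under TGF-beta, about the shares over all genes, and 3 higher and 6 lower under Repsox. Celsr1, the cadherin of planar polarity in epithelia, stood at 103 ± 7.16 CPM in K36M under TGF-beta, 69.4 ± 1.01 in K36M under Repsox, 2.1 ± 0.932 in WT under TGF-beta and 40 ± 1.21 in WT under Repsox (SD, n = 2 each). Among the 4 of highest level, K36M was above WT under TGF-beta for Celsr1 (log2 5.65 ± 0.16) and Scrib (log2 1.32 ± 0.10). It was below WT for Rhou (log2 -0.36 ± 0.08) and Daam1 (log2 -0.19 ± 0.08).

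**Figure D5:**
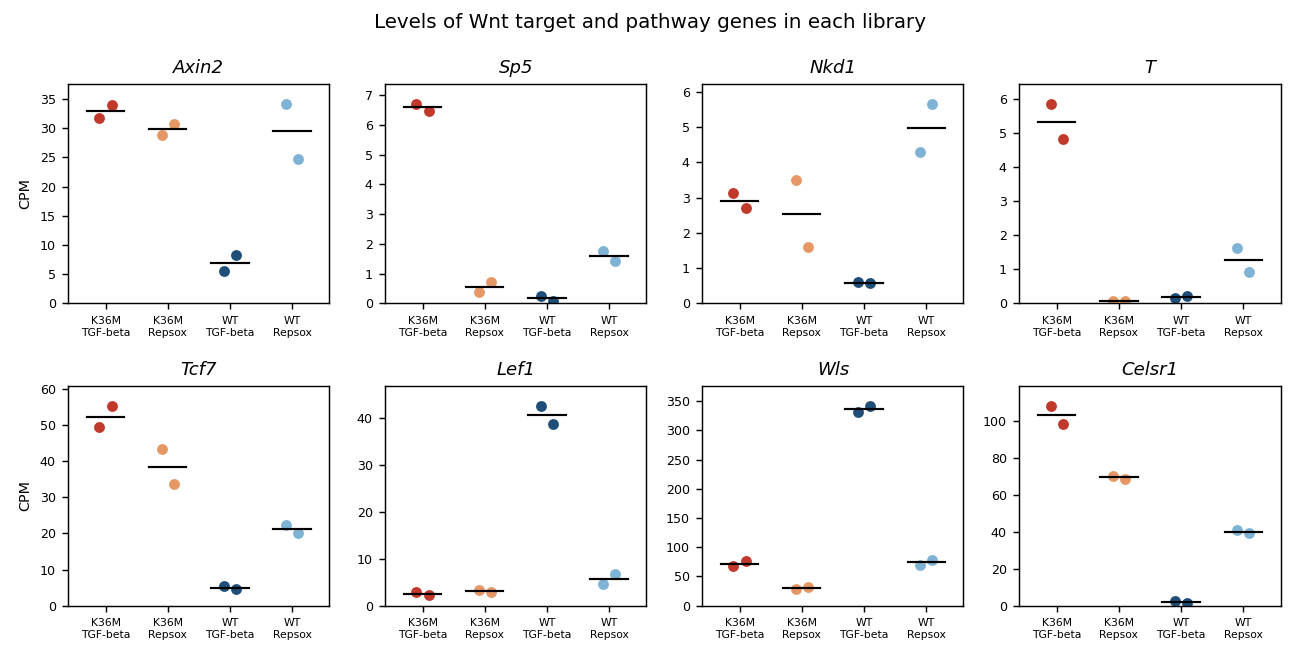
Levels of 8 target and pathway genes in CPM, with a point for each library and a bar at the mean of the 2 libraries of a group. Axin2 is lowest in WT under TGF-beta, at 5.51 and 8.26 CPM, Sp5 and T are highest in K36M under TGF-beta, and Lef1 and Wls are highest in WT under TGF-beta.

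Markers of other cell types also differed between the groups that the ligands separate. The summed level of 8 mesendoderm markers ran from 18.9 to 21.3 CPM in K36M under TGF-beta, 20.3 to 25.9 in K36M under Repsox, 2.58 to 3.45 in WT under TGF-beta and 13.6 to 14.6 in WT under Repsox. T and Eomes of this list also stood in the target and the trophoblast list. Within K36M, TGF-beta was below Repsox for Gata4 (log2 -1.24 ± 0.37, edgeR adjusted p = 0.00789) and Gata6 (log2 -1.05 ± 0.33, edgeR adjusted p = 0.0122), and above it for T (log2 6.03 ± 0.64, edgeR adjusted p = 5.35e-08). Trophoblast markers, 7 found of 9 listed, summed to 127 to 134 CPM in K36M under TGF-beta, 409 to 436 in K36M under Repsox, 6.71 to 7.04 in WT under TGF-beta and 188 to 201 in WT under Repsox. The neural markers, 4 found of 6 listed and led by Nes, summed to 235 to 253, 90.6 to 95.4, 1140 to 1285 and 157 to 176 CPM in the same order of groups. Nes alone stood at 230, 47.7, 1109 and 128 CPM, and Tubb3 at 12.2, 44.7, 90.3 and 37.7 CPM, in that order. The endothelial list of 6 ran from 47.9 to 121 CPM and the macrophage markers, 5 found of 6 listed, from 19.1 to 79.4 CPM over the 8 libraries. Of the endothelial list, Tek was highest in WT under TGF-beta, at 118 CPM, and Tie1 in K36M under TGF-beta, at 10.4 CPM. Pecam1 and Cdh5 were highest in K36M under Repsox, at 40.6 and 5.91 CPM. No marker found in the table was at 0 in all libraries, and the part of these cell types in the results was not tested.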

How the data were processed

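The deposited values were whole-number counts of reads per gene in 8 libraries, in 1 table of 26930 genes, made by the authors with STAR 2.5.0 and HTSeq 0.11.2 on mm9, per the submitters' processing notes, which also name edgeR. The annotation, the strand setting and any filter are not given in the sources used here. All 43 genes were found by identifier in GENCODE vM1 on mm9, which gave positions and exon lengths. The test was the quasi-likelihood test of edgeR 4.0.16 (R 4.3.3). Its function filterByExpr passed 15789 genes, normalisation factors by TMM ran from 0.894 to 1.06, and 4 group means were fitted over all 8 libraries (common biological coefficient of variation 0.0702, 4 residual degrees of freedom, 17.5 prior degrees of freedom). The fit was tested on simulated data. The simulated counts had the spread that the fit itself estimated, the same in every group, so they do not check that assumption. Alternatives were RLE size factors, no filter, DESeq2 1.42.0, only the 2 groups compared, a replicate block, and leaving out each library.

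The 43 genes and the lists were chosen with earlier results of these data known. Members with a mean of at least 2 CPM in a group (33) are described by library, and Wnt2, Dkk1 and Rspo1 by counts. From each list at most 4 genes of highest level were named, with Axin2, Lef1, Tcf7, Nkd1 and Sp5. Replicates differed by 2.7 to 9.09 times counting error (chi-square per degree of freedom), so none was counted as a duplicate. Intervals and bounds cover counting error only, and a bound uses 3 counts over a group.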

Additional observations from a re-analysis of the deposited data

Results flagged for a closer look

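The medium effect, TGF-beta minus Repsox on the log2 scale, differed between K36M and WT by the test of that difference in edgeR for 20 of the 33 genes described by library. It was more positive in K36M for Sfrp2 (4.99), Sfrp1 (4.80), Dkk3 (4.09), Wnt3 (6.45), Wnt8a (6.40), Wnt5b (3.29), Wnt7b (2.98), Wnt4 (1.94), Fzd2 (1.31), Fzd5 (1.27), Fzd1 (1.23) and Fzd7 (0.52). For Wnt6 (8.36) and Wnt10a (8.25), which had 0 counts in WT under TGF-beta, the size depends on the prior count. The same direction held for Fzd10 (3.73), Wif1 (4.14) and Frzb (2.93), which had 11, 3 and 7 counts in WT under TGF-beta. The call of Wif1 was lost without the first K36M TGF-beta library (2.74, edgeR adjusted p = 0.382) and without the first WT TGF-beta library (3.30, edgeR adjusted p = 0.0592), and that of Frzb without the same libraries (2.45, edgeR adjusted p = 0.165, and 2.27, edgeR adjusted p = 0.0756). Without the second WT TGF-beta library Frzb was 4.49, and Wif1 and Fzd10 were 7.86 and 9.23 with no read left in WT under TGF-beta. Without the second K36M TGF-beta library Wif1 was 4.80. Fzd10 was 2.83 without the first WT TGF-beta library, and 5.02 and 3.13 without the first and without the second K36M Repsox library. Wnt5b was 4.82 and 2.65 without the first and without the second K36M Repsox library. Wnt3 was 5.43 without the first WT Repsox library and 7.13 without the first WT TGF-beta library, and Wnt8a was 7.64 and 5.65 without the first and without the second WT TGF-beta library.

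The effect was more negative in K36M for Wnt9a (-1.14), Wnt11 (-2.04) and Fzd4 (-2.85). The call of Wnt11 was lost without the second K36M Repsox library (-1.16, edgeR adjusted p = 0.209), and it was -2.66 without the first. That of Fzd4 was lost without the first WT TGF-beta library (-2.00, edgeR adjusted p = 0.0713), and it was -3.51 without the first K36M TGF-beta library. Among all tested genes 51.0% had a difference called in either direction, so such a call alone does not set these genes apart.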

How the results depend on the processing

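All 116 called differences of the 33 genes described by library kept their direction under the alternatives, and none was lost with RLE size factors or without the low-count filter. Of the 116, 3 were lost in DESeq2 and 1 with only the 2 groups compared. Others were lost when 1 library was left out, as given for each gene above. Outside these, the call of Wnt2 in K36M against WT under Repsox was made by only 2 of 12 alternatives. The replicate numbers shared by the groups did not pair the libraries (correlations of deviations from -0.0202 to 0.0315), and with the number as a replicate block K36M against WT again called 15 higher and 9 lower under TGF-beta and 8 higher and 20 lower under Repsox, TGF-beta against Repsox called 18 higher and 3 lower in K36M and 12 higher and 18 lower in WT, and their difference 18 and 4. Leaving out 1 library moved the count of genes with a more negative response in K36M to between 4 and 7. Differences that were not called in the reported fit changed sign in places. Leaving out 1 library gave these log2 values. For K36M against WT under TGF-beta, values ran from -0.22 to 1.99 for Frzb, -1.06 to 0.45 for Fzd4, -0.12 to 0.04 for Fzd7 and -0.38 to 4.74 for Wif1. For K36M against WT under Repsox, values ran from -1.17 to 0.32 for Wnt11, -1.53 to 0.04 for Wnt3 and -0.12 to 0.72 for Wnt7a. For TGF-beta against Repsox in K36M, values ran from -0.25 to 0.03 for Dkk2, -0.24 to 0.52 for Fzd9, -1.93 to 0.17 for Sfrp4 and -1.44 to 0.61 for Wif1. For TGF-beta against Repsox in WT, values ran from -0.07 to 0.09 for Fzd7 and -0.31 to 0.10 for Sfrp4. For the difference between the medium effects, values ran from -0.04 to 0.67 for Fzd8, -1.84 to 0.25 for Sfrp4, -0.39 to 1.43 for Wnt16, -0.04 to 0.15 for Wnt2b, -0.11 to 0.13 for Wnt5a and -0.20 to 0.63 for Wnt7a. For the difference between the medium effects, Wnt5a was at -0.01 with RLE size factors and -0.01 with DESeq2, and for TGF-beta against Repsox in WT, Fzd7 was at -0.01 without the filter. The cause was not tested. With 2 libraries a group, genes under about 2 CPM rest on few reads, and a difference not called is not shown to be absent.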
